A study of Mus musculus with 36 samples.

Results

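The genes described here are 10 immune checkpoint ligands and costimulators, surface or secreted proteins through which a cell speaks to T cells, NK cells and macrophages. They were the 10 listed mouse symbols Cd274, Pdcd1lg2, Cd80, Cd86, Cd83, Pvr, Nectin2, Cd47, Lgals9 and Tnfsf9, each matched through its Ensembl identifier to 1 of the 49585 genes of the deposited count table. T cells integrate the antigen signal with second signals from such ligands: CD80 and CD86 bind CD28 to stimulate and CTLA-4 to restrain, and PD-L1 and PD-L2 (Cd274, Pdcd1lg2) engage PD-1 and dampen the response. Tumour cells can show inhibitory ligands themselves, of which PD-L1 is the best known in lung cancer, and interferon-gamma is its classical inducer. Most costimulators of the B7 family are in contrast hallmarks of professional antigen-presenting cells.

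The libraries came from neoplastic cells of mouse lung tumours driven by EML4-ALK, a kinase fusion found in human lung adenocarcinoma, which were sorted by their EGFP signal. Tumours carried variant 1 or variant 3 of the fusion, and each variant was combined with sgNeo, under which Setd2 was intact, or with sgSetd2, under which the labels call the tumours deficient in Setd2. Setd2 encodes the enzyme that trimethylates lysine 36 of histone H3. Each of the 4 groups (Variant 1 sgNeo, Variant 1 sgSetd2, Variant 3 sgNeo, Variant 3 sgSetd2) held 9 tumours under 3 codes that stand in the sample titles, with 3 tumours per code. What a code stands for is not stated in the labels. Here the code was the unit of the main tests, its 3 tumours were summed, and n below is 3 codes per group. Some alternative fits took single tumours as samples. If the codes are not separate animals, the p-values measure only the spread between these codes. Strain, age, the route by which the fusion and the guides were introduced and the time of collection were not given in the sources used here.

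The libraries held 17893071 to 137152480 counted reads per tumour (median 40651118). Levels below are CPM, with library sizes scaled by TMM. Setd2 itself lay at 53.5 to 78.5 CPM in the Variant 1 sgNeo codes and 34.5 to 39.0 CPM in the Variant 1 sgSetd2 codes, without overlap. In Variant 3 the sgNeo codes lay at 45.2 to 65.7 CPM and the sgSetd2 codes at 33.6, 43.8 and 59.8 CPM, so that code CE456, at 59.8 CPM, did not stand below the controls. Transcript level does not read an edit of the gene, and every Variant 3 comparison below rests on the labels for this code. The cells carried epithelial markers: 6 lung epithelial and alveolar type 2 genes summed to 25000 to 172000 CPM per tumour, whereas the pan-leukocyte gene Ptprc had a median of 0 and a maximum of 3.57 CPM. In 8 tumours the proliferation gene Mki67 exceeded 30 CPM: 4 were Variant 1 sgNeo, 3 Variant 3 sgNeo, 1 Variant 3 sgSetd2 and 0 Variant 1 sgSetd2. The other 28 tumours lay between 0.424 and 29.0 CPM, so the limit is not a natural gap. Several results below are given with and without these 8 tumours.

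Of the 10 genes, 6 could be matched to a promoter window of RefSeq on build GRCm38.p6, which runs from 250 bases before to 50 bases after the transcript start. Cd83, Cd86, Pvr and Tnfsf9 were not among them. The windows of 4 genes are shown because they pair neighbours or extremes of level: Cd274 and Pdcd1lg2 lie 22.8 kb apart on chromosome 19 and were measured at very different levels, and Cd47 and Lgals9 were both abundant although their promoters differ in base composition. Capitals mark CpG dinucleotides, and each sequence reads 5′ to 3′ on the strand of its gene.
Cd274 (chr19:29367188-29367487, plus strand): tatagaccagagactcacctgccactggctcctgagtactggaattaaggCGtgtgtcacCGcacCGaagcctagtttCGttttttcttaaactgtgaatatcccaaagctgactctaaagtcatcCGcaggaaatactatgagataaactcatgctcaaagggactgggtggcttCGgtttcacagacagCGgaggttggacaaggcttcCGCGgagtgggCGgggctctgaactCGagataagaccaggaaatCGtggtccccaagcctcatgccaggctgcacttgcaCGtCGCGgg
Pdcd1lg2 (chr19:29410669-29410968, plus strand): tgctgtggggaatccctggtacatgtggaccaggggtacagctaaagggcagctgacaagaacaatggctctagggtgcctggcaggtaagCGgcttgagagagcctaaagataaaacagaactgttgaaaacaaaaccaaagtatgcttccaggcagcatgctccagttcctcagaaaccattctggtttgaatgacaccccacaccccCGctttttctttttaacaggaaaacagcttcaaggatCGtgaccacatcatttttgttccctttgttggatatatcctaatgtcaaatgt
Cd47 (chr16:49855404-49855703, plus strand): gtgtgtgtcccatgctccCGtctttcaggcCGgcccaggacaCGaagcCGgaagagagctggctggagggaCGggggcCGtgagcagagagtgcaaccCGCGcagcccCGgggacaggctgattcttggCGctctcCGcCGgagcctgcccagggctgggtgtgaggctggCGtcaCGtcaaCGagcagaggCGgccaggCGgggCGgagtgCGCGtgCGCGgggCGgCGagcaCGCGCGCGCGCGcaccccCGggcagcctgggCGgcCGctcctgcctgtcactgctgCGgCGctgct
Lgals9 (chr11:78984875-78985174, minus strand): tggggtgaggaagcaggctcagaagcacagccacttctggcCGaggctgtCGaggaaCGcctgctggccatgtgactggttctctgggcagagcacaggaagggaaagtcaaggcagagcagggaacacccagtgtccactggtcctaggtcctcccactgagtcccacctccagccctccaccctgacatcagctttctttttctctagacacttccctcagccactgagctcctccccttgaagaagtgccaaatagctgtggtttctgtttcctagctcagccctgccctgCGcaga
The Cd47 window held 35 CpG, more than 93.0% of 32851 mouse promoter windows of the same length, whose median was 7 (quartiles 3 and 20). Nectin2 held 20, Cd274 15, Lgals9 4, and Pdcd1lg2 and Cd80 3 each. Per length, Pdcd1lg2 and Cd80 were the lowest of the 6, and Cd47 and Nectin2, with the most CpG, were abundant. Lgals9, with 4 CpG, was expressed above Cd47, so the order by level was not the order by CpG content. The gamma-activated site TTCNNNGAA, sought on both strands, was found in 8.3% of all windows and in none of the 6. The core of the interferon-stimulated response element, sought on both strands as GAAA, any 2 bases and GAAA again, occurred in 3.44% of all windows and, among the 6, in Lgals9 alone, with 2 matches. These are matches of letters and say nothing of factor binding.

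Sorted EML4-ALK tumour cells transcribed 6 of the 10 genes at clear levels, Cd274 at a low level and the remaining B7 genes almost not at all. Per kilobase of exon, the mean level over the 12 codes was 239 ± 74.5 CPM (SD) for Tnfsf9, 68.7 ± 14.6 for Lgals9, 48.5 ± 7.58 for Nectin2, 42.4 ± 9.33 for Cd47, 13.0 ± 2.22 for Pvr and 6.04 ± 3.54 for Cd83. Tnfsf9, which encodes 4-1BB ligand, a costimulator of activated T cells, thus exceeded 99.3% of the 20009 genes that passed the filter on low counts. Cd274 lay at 0.460 ± 0.231 CPM per kb, above 34.6% of those genes. Cd80 (0.0127 ± 0.0171), Cd86 (0.00993 ± 0.0248) and Pdcd1lg2 (0.00291 ± 0.00637) were at the bottom. Some neighbours in this order were not separated beyond the spread over codes: Lgals9 exceeded Nectin2 in 10 of 12 codes, Nectin2 exceeded Cd47 in 9, and Cd80 exceeded Cd86 in 4. Tnfsf9 exceeded Lgals9, Cd47 exceeded Pvr and Cd274 exceeded Cd80 in all 12 codes, and Pvr exceeded Cd83 in 11. In bulk samples such as these, fewer expressing cells and less RNA per cell cannot be told apart.

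**Figure D1:**
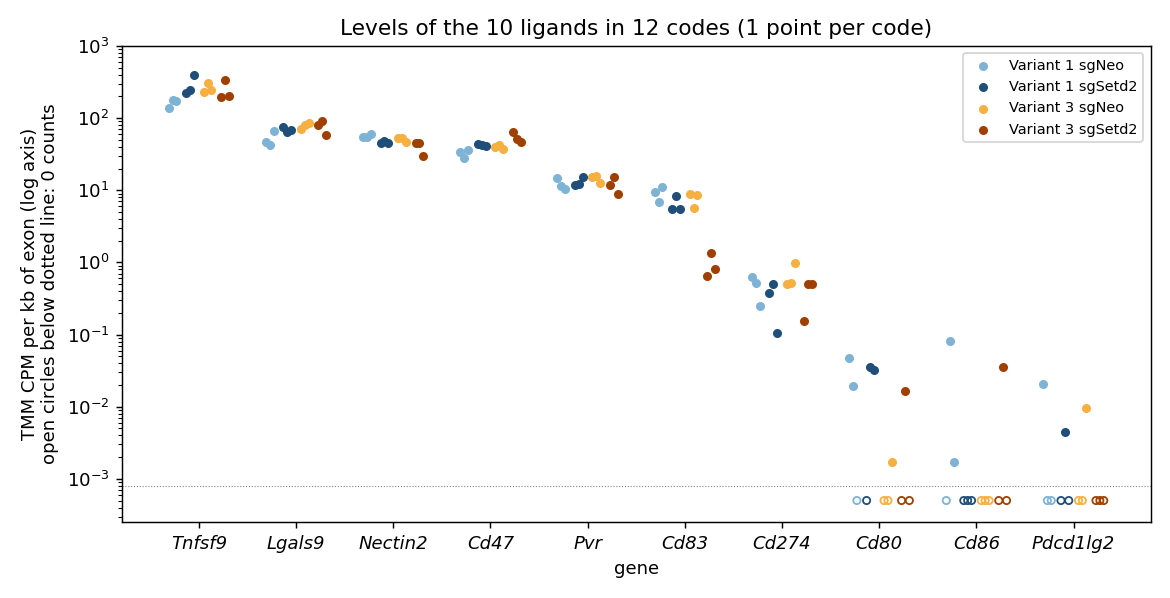
Level of each of the 10 genes in CPM per kilobase of exon (log axis), 1 point per code and 3 codes per group; open circles below the dotted line are codes with 0 counts. Tnfsf9 is highest in every code, Cd83 of the Variant 3 sgSetd2 codes lies apart from the other groups, and Cd80, Cd86 and Pdcd1lg2 have many codes at 0.

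Across the comparisons of the design, Cd83 was lower with sgSetd2 in Variant 3, Cd47 was higher with sgSetd2 when both variants were averaged, and no other member passed the test. Of the 10 genes, 8 passed the filter and were tested by edgeR's quasi-likelihood test with Benjamini-Hochberg adjustment over all 20009 genes, at an adjusted p of 0.05. Pdcd1lg2 and Cd86 were not tested, and Cd80 passed with 65 counts in all, so no fold is given for it. For sgSetd2 against sgNeo in Variant 1, 0 of 8 members were called, where 1.42% of all tested genes were called (0.7% higher, 0.72% lower) and 3 members had an unadjusted p under 0.05; DESeq2 called 1, Tnfsf9. In Variant 3, 1 of 8 members was called, lower, where 0.615% of all genes were called lower, 0.88% higher and 1.49% in either direction. In the average of both variants, 1 member was called higher and 1 lower, where 3.72% of all genes were called higher, 3.63% lower and 7.35% in either direction. For Variant 3 against Variant 1 in sgNeo, edgeR called 0 of 8 members, where 0.005% of genes were called; 2 members had an unadjusted p under 0.05, and DESeq2 called 0. In sgSetd2, 1 of 8 members was called, lower, where 0.125% of genes were called lower and 0.13% in either direction. For the difference between the Setd2 effects in the 2 variants, the interaction, edgeR called 0 members, where 0% of genes were called; 2 members had an unadjusted p under 0.05, and DESeq2 called 1, Cd83. The comparisons share groups, so their results are not independent of one another.

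**Figure D2:**
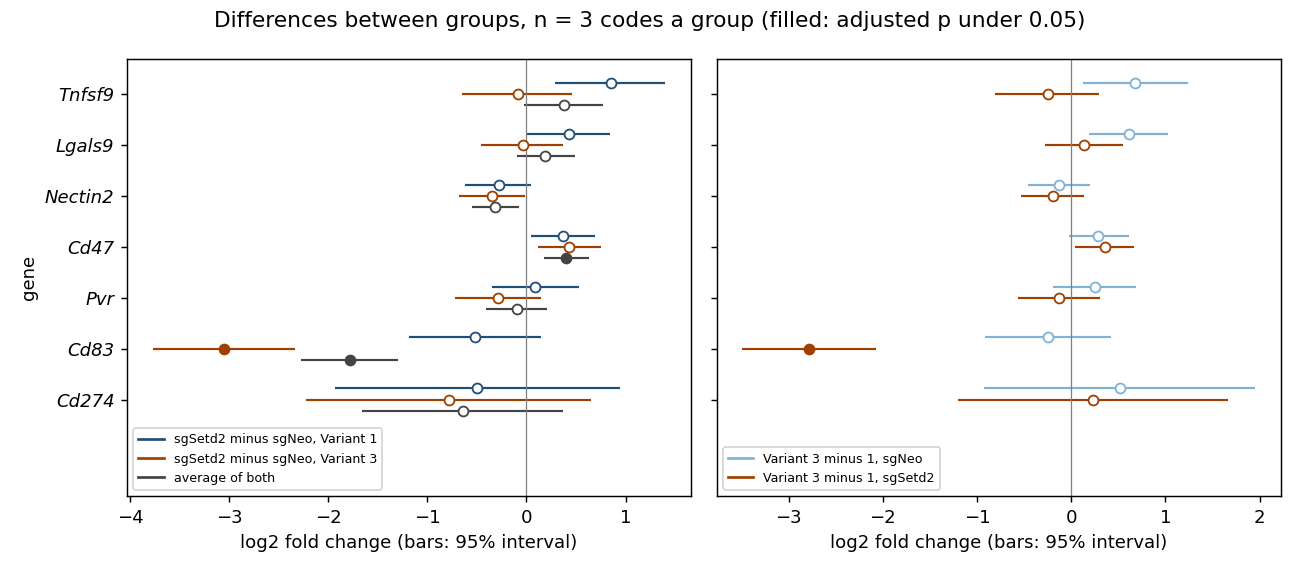
Log2 fold change (x axis) of the 7 members with a fold, with 95% intervals from the edgeR fit and n = 3 codes per group; left, sgSetd2 minus sgNeo, right, Variant 3 minus Variant 1; filled symbols have an adjusted p under 0.05. Cd83 stands apart at -3.05 in Variant 3, and Cd47 is filled only in the average.

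Among the B7 ligands, Cd274 encodes PD-L1, the ligand of PD-1 (gene at chr19:29367455-29388095, plus strand, in the GENCODE M21 annotation). Its counts were few, with 2959 over all 36 tumours and 0 in 6 of them. Variant 1 sgNeo tumours ranged from 0 to 5.81 CPM (median 1.19), and Variant 1 sgSetd2 tumours from 0 to 2.85 CPM (median 0.923). Variant 3 sgNeo tumours ranged from 0 to 4.43 CPM (median 2.40), and Variant 3 sgSetd2 tumours from 0 to 5.47 CPM (median 1.11). All 4 groups overlapped broadly. The code means were 1.68 ± 0.712, 1.19 ± 0.746, 2.40 ± 0.987 and 1.39 ± 0.732 CPM (SD, n = 3 each) in the same order. The sgSetd2 difference was a log2 fold change of -0.50 in Variant 1 (95% interval -1.93 to 0.94, edgeR adjusted p = 0.794) and -0.78 in Variant 3 (-2.22 to 0.65, adjusted p = 0.641). Both intervals hold a large fall as well as a rise. With limma voom on the tumours the differences were -0.92 and -1.70, and leaving out 1 code or tumour moved them between -0.95 and -0.08 and between -1.09 and -0.39, with no call in any of these fits. Variant 3 against Variant 1 gave 0.52 in sgNeo and 0.23 in sgSetd2, with adjusted p of 0.843 and 0.939.

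The other 3 B7 ligands were at or near 0. Pdcd1lg2, encoding PD-L2, had 8 counts in all, 4 of them in tumour 1 of CE467, 3 in tumour 1 of CE433 and 1 in tumour 2 of CE479. Cd80 had 65 counts in 8 tumours, led by 17 in tumour 1 of CE467, 15 in tumour 2 of CE479 and 11 in tumour 1 of CE483. Cd86 had 64 counts in 3 tumours, of which 37 were in tumour 1 of CE468 and 26 in tumour 5 of CE454. These genes were thus concentrated in a few libraries rather than spread over a group. Tumour 1 of CE467 also had the highest summed level of 8 dendritic cell markers, and tumour 1 of CE468 had 3.20 CPM of Ptprc. Ptprc was at 0 in tumour 2 of CE479, tumour 1 of CE433 and tumour 2 of CE472, which held counts of these genes. Tumour 6 of CE456, with the highest Ptprc (3.57 CPM), held none. Other markers did not follow Ptprc. Within Variant 1 sgSetd2, tumour 2 of CE479 had the highest summed markers of T and NK cells (1.25 CPM), dendritic cells (7.58), neutrophils (10.3) and fibroblasts (104). It was not the highest there for macrophages, B cells or endothelium. Tumour 1 of CE467 had the highest fibroblast sum of Variant 1 sgNeo (272 CPM). The part of other cells in these counts was not tested. Cd86 was at 0 in both Variant 1 sgSetd2 and Variant 3 sgNeo, and Pdcd1lg2 in Variant 3 sgSetd2. A count of 0 over a group allows up to 3 counts, or 0.00957 CPM in Variant 1 sgSetd2, 0.00622 CPM in Variant 3 sgNeo and 0.00554 CPM in Variant 3 sgSetd2, and these limits cover counting error only. Exact two-sided permutation of the codes within variants gave p = 0.5 for Pdcd1lg2, 0.7 for Cd80 and 0.7 for Cd86 for the averaged Setd2 difference, where the smallest possible p is 0.005.

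Cd83 encodes an immunoglobulin-family surface protein best known as a marker of mature dendritic cells, where it stabilises MHC class II and CD86 at the surface (chr13:43784775-43803132, plus strand). Variant 1 sgNeo tumours held 6.11 to 46.1 CPM (median 25.1), Variant 1 sgSetd2 tumours 7.86 to 31.8 CPM (median 16.1) and Variant 3 sgNeo tumours 1.88 to 37.0 CPM (median 19.0). Variant 3 sgSetd2 tumours held only 0 to 5.91 CPM (median 3.04). Of the 9 Variant 3 sgNeo tumours, tumour 1 of CE433, at 1.88 CPM, was the single one within the sgSetd2 range. The summed codes stood at 22.7, 14.4 and 22.3 CPM in Variant 3 sgNeo and at 1.66, 3.41 and 2.09 CPM in Variant 3 sgSetd2, without overlap. Cd83 fell to 0.121 of the control level in Variant 3, a log2 fold change of -3.05 ± 0.33 (SE, edgeR adjusted p = 0.00187). It was called in all 12 alternative analyses and in each of the 48 fits made without 1 code or without 1 tumour, with log2 fold changes of -4.28 to -2.62, and was -3.56 (adjusted p = 0.00485) without the 8 tumours above 30 CPM of Mki67. Code CE456, whose Setd2 level did not stand below the controls, lay at 2.09 CPM of Cd83, between the other sgSetd2 codes of Variant 3.

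**Figure D3:**
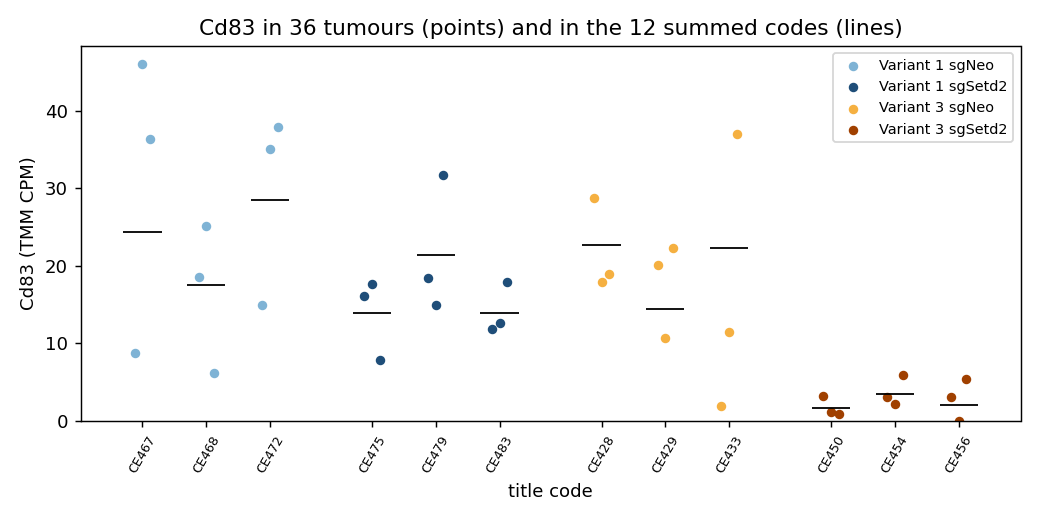
Cd83 in CPM (y axis) in each of the 36 tumours (points) and in the 12 summed codes (lines), ordered by group. The 9 Variant 3 sgSetd2 tumours sit between 0 and 5.91 CPM, and among the other 27 only tumour 1 of CE433, at 1.88 CPM, falls into that range.

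In Variant 1 the Cd83 codes were 24.4, 17.5 and 28.5 CPM in sgNeo and 13.9, 21.4 and 13.9 CPM in sgSetd2, which overlap. The log2 fold change was -0.52 ± 0.30 (95% interval -1.18 to 0.15, edgeR adjusted p = 0.449), and -1.11 (adjusted p = 0.383) without the 8 tumours above 30 CPM of Mki67. The direct comparison of the 2 effects gave an interaction of -2.54 ± 0.43 with an edgeR p of 9.67e-05 before adjustment and 0.385 after it. DESeq2 gave -2.56 with an adjusted p of 3.12e-05, so whether the Cd83 effect differs between variants depended on the tool. Among sgSetd2 tumours Cd83 was lower in Variant 3 than in Variant 1, with a log2 fold change of -2.78 ± 0.32 (edgeR adjusted p = 0.0099). That call was lost without CE450 (adjusted p = 0.0573), without CE456 (0.0591) and without tumour 3 of CE433 (0.0807), all by edgeR, and also with only the compared groups in the fit (0.0801) and with the macrophage covariate (0.0562). Among sgNeo tumours the variants differed by -0.25 ± 0.30 (adjusted p = 0.838). Averaged over variants, Cd83 was lower with sgSetd2 by a log2 fold change of -1.78 ± 0.22 (edgeR adjusted p = 0.00125), and exact two-sided permutation of codes within variants gave p = 0.01.

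Markers of dendritic cells did not pass the test in the comparisons in which Cd83 did. The 8 dendritic cell markers summed to a median of 3.31 CPM (0.959 to 10.2) in Variant 3 sgNeo and 3.42 CPM (0.431 to 5.27) in Variant 3 sgSetd2, with Flt3 at 0 in both groups and Clec9a at 0 in Variant 3 sgNeo, and 0 of the 5 that could be tested passed in any comparison of Setd2. Over all genes, 1.42% were called in Variant 1, 1.49% in Variant 3 and 7.35% in the average. Most of the dendritic cell sum was Zbtb46, with a median of 2.68 CPM over all tumours. Of the 5 tested markers, 1 had a positive log2 fold change in Variant 3 (median -0.98, against 0.02 over all genes). In the average 0 of the 5 did (median -1.5, against 0.01 over all genes). Itgax, Xcr1, Ccr7 and Fscn1 had means of at most 0.235 CPM in Variant 3 sgNeo, so their folds rest on few counts. The B cell marker Cd79b had a median of 12.2 CPM in Variant 3 sgNeo and 4.75 CPM in Variant 3 sgSetd2. That difference did not pass (log2 -1.75, edgeR adjusted p = 0.0608). Cd79a was also lower, with code means of 0.351 and 0.061 CPM (log2 -2.51, edgeR adjusted p = 0.492). Ms4a1 was at 0 in 35 of 36 tumours. T and NK cell markers summed to at most 1.25 CPM in any tumour. The neutrophil list rose in Variant 3, where Cd83 fell: its 5 markers summed to a median of 0.214 CPM (0 to 4.18) in sgNeo and 7.44 CPM (4.12 to 26.4) in sgSetd2. Nearly all of that was Cxcr2, which was called in the average (log2 2.41, edgeR adjusted p = 0.0116), while S100a9, Csf3r and Ly6g were at 0 in 34, 35 and 32 of 36 tumours. Cxcr2 was also higher with sgSetd2 in Variant 1, without passing (log2 2.34, edgeR adjusted p = 0.111). The fibroblast list had medians of 8.51 and 43.4 CPM in the same groups, most of it Dcn (5.20 and 33.3 CPM), which did not pass (adjusted p = 0.562). The part of other cells in the Cd83 difference was not tested.

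Cd47 encodes the "don't eat me" ligand of SIRP-alpha on macrophages (chr16:49800533-49915010, plus strand). Variant 1 sgNeo tumours held 147 to 273 CPM (median 209) and Variant 1 sgSetd2 tumours 237 to 315 CPM (median 256). Variant 3 sgNeo tumours held 156 to 287 CPM (median 267) and Variant 3 sgSetd2 tumours 260 to 472 CPM (median 333). Tumours overlapped in both variants, but the summed codes did not: 177 to 229 against 255 to 278 CPM in Variant 1, and 235 to 269 against 295 to 409 CPM in Variant 3. The sgSetd2 level was 1.29 times that of sgNeo in Variant 1 (log2 0.37 ± 0.14, edgeR adjusted p = 0.234) and 1.35 times in Variant 3 (0.43 ± 0.14, adjusted p = 0.175), and neither passed alone. The average of both, 1.32 times (log2 0.40 ± 0.10), had an edgeR adjusted p of 0.0373, and exact permutation gave p = 0.005, the smallest it can give. The interaction was 0.07 (95% interval -0.38 to 0.51). Cd47 also lay higher in Variant 3 than in Variant 1 by 0.29 in sgNeo and 0.36 in sgSetd2, which did not pass (adjusted p of 0.514 and 0.439).

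The averaged Cd47 call was close to the threshold. It was lost in 9 of 12 fits that left out 1 code (adjusted p up to 0.0985) and in 6 of 36 that left out 1 tumour. Without the 8 tumours above 30 CPM of Mki67 the average was 0.20 on the log2 scale (edgeR adjusted p = 0.362), and the Variant 1 difference 0.10. With a macrophage covariate the average was 0.35 (edgeR adjusted p = 0.0705). This covariate was the mean of log2(CPM + 0.5) over 12 macrophage markers of equal weight, so it is not an adjustment for Cd14, which dominates the sum in CPM. The macrophage sum was 138 to 360 CPM in Variant 1 sgNeo and 260 to 404 CPM in Variant 1 sgSetd2, 177 to 286 CPM in Variant 3 sgNeo and 263 to 402 CPM in Variant 3 sgSetd2. Nearly all of it was Cd14 (median 272 CPM), which rose with sgSetd2 in the average (log2 0.57, adjusted p = 0.0344). Of the other macrophage markers, Cd68 was detected in every tumour (median 7.69 CPM), Csf1r, Mertk and Mrc1 were at 0 in 8, 10 and 12 of 36 tumours, C1qa, C1qb and C1qc in 26, 28 and 24, and Adgre1, Fcgr1, Marco and Siglecf in 33, 34, 33 and 33. The part of Mki67 and of Cd14 in the Cd47 difference was not tested further.

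Nectin2 and Pvr encode neighbouring nectin-family ligands, 153 kb apart on chromosome 7, that bind the activating receptor DNAM-1; Pvr also binds the inhibitory receptor TIGIT with high affinity and Nectin2 with lower affinity. Nectin2 (chr7:19716644-19750483, minus strand) held 120 to 257 CPM (median 198) in Variant 1 sgNeo tumours and 141 to 174 CPM (median 164) in Variant 1 sgSetd2 tumours. In Variant 3 the tumours held 122 to 209 CPM (median 187) with sgNeo and 88.4 to 161 CPM (median 155) with sgSetd2. The tumours overlapped, yet the codes did not, at 188 to 208 against 156 to 168 CPM in Variant 1 and 164 to 188 against 105 to 159 CPM in Variant 3. In Variant 3 the sgSetd2 codes CE450 and CE454 were both at 159 CPM, close to the lowest sgNeo code at 164 CPM. The lowest, at 105 CPM, was CE456, whose Setd2 level did not stand below the controls. Log2 fold changes were -0.28 ± 0.15 in Variant 1 (edgeR adjusted p = 0.399), -0.35 ± 0.15 in Variant 3 (0.308) and -0.32 ± 0.11 in the average (0.101). None passed the adjustment over all genes in this fit. Leaving out 1 code or tumour moved the Variant 3 difference between -0.44 and -0.17 and the average between -0.36 and -0.23, with no call. Taken over the 36 tumours, edgeR called the average (adjusted p = 0.00423) and Variant 3 (0.0393). That fit treats tumours of a code as independent samples, so its p-values can be too small. Over the same tumours, limma voom with the code as random block called the average (adjusted p = 0.0148). DESeq2 on the codes gave an adjusted p of 0.0551 for the average. Exact permutation of the codes for this gene alone gave p = 0.005, the smallest it can give. Without the 8 tumours above 30 CPM of Mki67 the average was -0.41 (edgeR adjusted p = 0.0933). The small antisense gene Gm20512 overlaps Nectin2 with 164 counts.

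Pvr (chr7:19903578-19921160, minus strand) passed in no comparison. Its tumours ranged from 40.9 to 96.9 CPM (median 85.0) in Variant 1 sgNeo, 61.2 to 95.9 (80.1) in Variant 1 sgSetd2, 67.0 to 111 (89.2) in Variant 3 sgNeo and 44.1 to 101 (74.3) in Variant 3 sgSetd2. All groups overlapped. The sgSetd2 differences were 0.09 in Variant 1 (95% interval -0.35 to 0.53) and -0.29 in Variant 3 (-0.72 to 0.15) on the log2 scale, with edgeR adjusted p of 0.889 and 0.555. Variant 3 against Variant 1 gave 0.25 in sgNeo and -0.13 in sgSetd2.

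Lgals9 encodes galectin-9, a secreted lectin that binds TIM-3 on T cells (chr11:78962974-78984946, minus strand). Variant 1 sgNeo tumours held 70.9 to 151 CPM (median 123), the other groups 128 to 162 (149) in Variant 1 sgSetd2, 128 to 229 (157) in Variant 3 sgNeo and 101 to 209 (171) in Variant 3 sgSetd2. The 3 lowest tumours of all were Variant 1 sgNeo, namely tumour 1 of CE468 at 70.9 CPM, tumour 1 of CE467 at 76.9 CPM and tumour 4 of CE468 at 92.1 CPM. All 3 were among the tumours above 30 CPM of Mki67. So was the highest tumour of all, tumour 2 of CE433 in Variant 3 sgNeo, at 229 CPM of Lgals9. The codes averaged 110 ± 26.1 CPM (SD) in Variant 1 sgNeo, 148 ± 11.2 in Variant 1 sgSetd2 and 162 ± 35.5 in Variant 3 sgSetd2, and lay at 150, 172 and 181 CPM in Variant 3 sgNeo. Log2 differences were 0.43 ± 0.19 for sgSetd2 in Variant 1 (edgeR adjusted p = 0.299), -0.04 ± 0.19 in Variant 3 (0.951) and 0.61 ± 0.19 for Variant 3 against Variant 1 in sgNeo (0.354). Without the 8 tumours the first was 0.06 and the last 0.18.

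Tnfsf9 (chr17:57105325-57107757, plus strand) varied most widely in Variant 1 sgNeo, where tumours held 44.9 to 421 CPM (median 301). Variant 1 sgSetd2 tumours held 257 to 523 CPM (median 328), Variant 3 sgNeo 192 to 482 (332) and Variant 3 sgSetd2 216 to 458 (267). In Variant 1 sgNeo 3 tumours were low, tumour 1 of CE467 at 44.9 CPM, tumour 2 of CE472 at 78.7 CPM and tumour 1 of CE468 at 134 CPM, while the other 6 held 296 to 421 CPM. The 3 low tumours came from 3 different codes and were all above 30 CPM of Mki67. Tumour 4 of CE468, at 296 CPM of Tnfsf9, was above that Mki67 level too. The 3 low tumours were also the deepest or nearly the deepest library of their code, so the summed codes (175 to 228 CPM) lay below the tumour median. The sgSetd2 difference in Variant 1 was 0.85 ± 0.26 on the log2 scale (208 ± 28.9 against 374 ± 123 CPM, codes not overlapping, edgeR adjusted p = 0.132). DESeq2 gave 0.87 with an adjusted p of 0.0155, and without the 8 tumours edgeR gave 0.06 (adjusted p = 0.974). In Variant 3 the difference was -0.09 ± 0.25 (335 ± 51.2 against 314 ± 98.4 CPM, adjusted p = 0.92). The interaction was -0.94 ± 0.36 with an edgeR p of 0.0237 before and 0.77 after adjustment, and -0.30 without the 8 tumours. The average over variants was 0.38 ± 0.18 (adjusted p = 0.239) and -0.09 without them. The antisense gene Gm11110 overlaps Tnfsf9 with 10534 counts, beside 535101 for Tnfsf9, and whether counting used strand was not given in the sources used here.

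**Figure D4:**
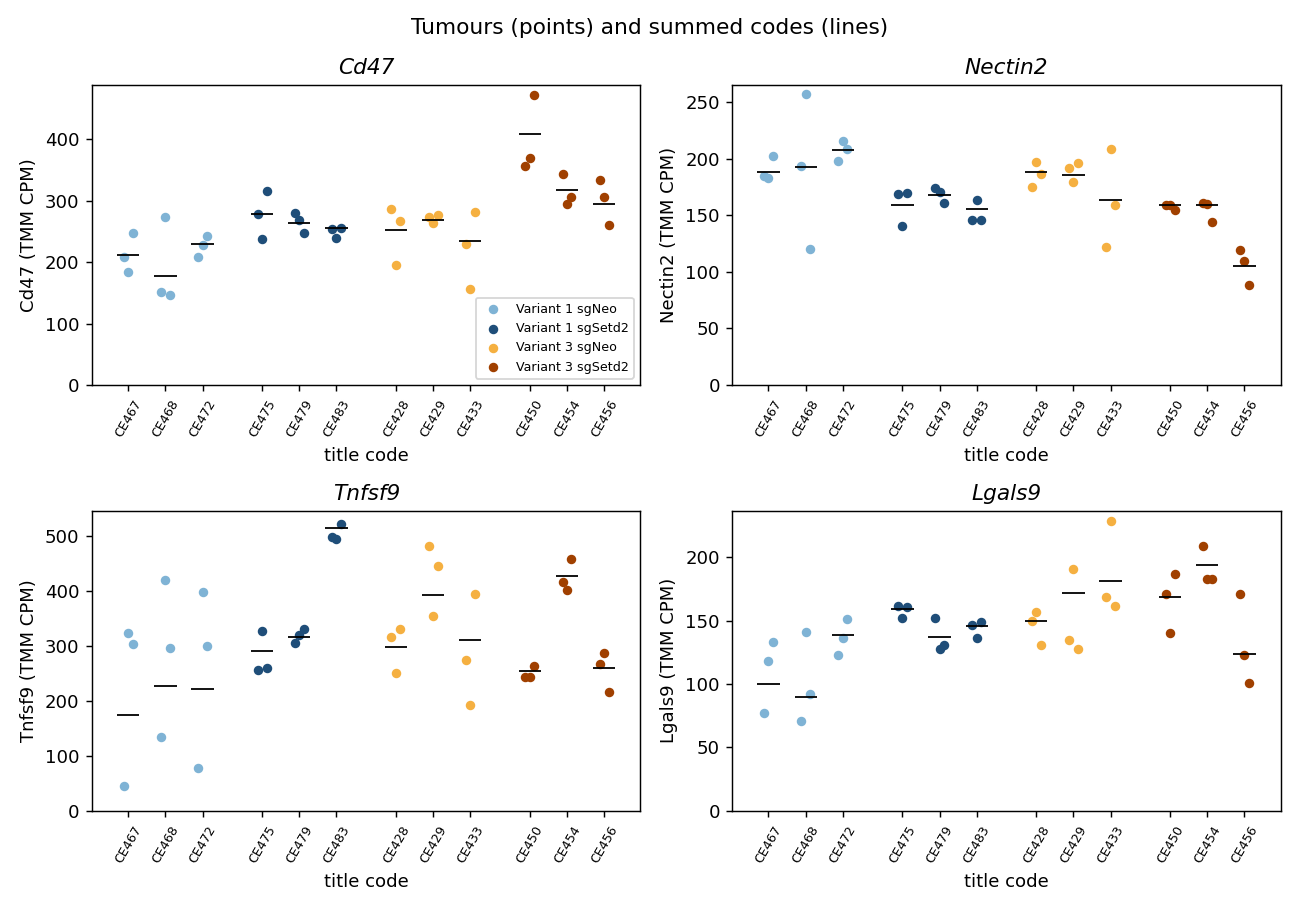
Cd47, Nectin2, Tnfsf9 and Lgals9 in CPM (y axes, from 0) in each of the 36 tumours (points) and the 12 summed codes (lines). Cd47 codes are higher and Nectin2 codes lower with sgSetd2 in both variants, and 3 Variant 1 sgNeo tumours lie at 44.9, 78.7 and 134 CPM of Tnfsf9.

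The genes differed in how much tumours of one code varied. The SD of log2(CPM + 0.5) within codes was 1.13 for Cd274, 1.04 for Cd83 and 0.67 for Tnfsf9, against 0.22 for Nectin2, 0.25 for Cd47, 0.27 for Lgals9 and 0.29 for Pvr. Code means of a group varied by 0.63, 0.49 and 0.39 for the first 3. Cd83 ranged over 3.98 log2 units within CE433 alone, and Tnfsf9 over 2.84 within CE467. After group means were subtracted, the highest correlations between members over the 36 tumours were 0.47 for Nectin2 with Lgals9 and 0.44 for Nectin2 with Cd47, and the lowest was -0.26 for Pvr with Cd47. Tumours of a code and the depth of a library are shared by both values of each pair, and the correlations are descriptions.

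Among 9889 genes with a mean of at least 5 CPM, the 3 genes whose pattern over the 36 tumours was most like that of Cd83, after group means were subtracted, were Tdrp (r = 0.73), Slc25a42 (0.67) and Heca (0.66). For Cd47 they were Sdf4 (0.86), Ptp4a2 (0.84) and Rnf11 (0.81). For Cd274, with its low counts, they were Zfp202 (0.62), Slc40a1 (0.61) and Lin9 (0.58). Each of these r was picked as among the highest of 9889 genes and carries no p. Low counts can lower r, so the values of Cd274 and Cd47 are not compared.

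Related ligands and the pathways that feed these genes were read from lists. Of 7 genes for other inhibitory ligands and CD47 maturation, all tested, 3 rose and 1 fell with sgSetd2 in the average, where 3.72% of all genes rose and 3.63% fell (median log2 fold change 0.44, against 0.01 over all genes). The lists are short and were not tested as sets. Fgl1, encoding a ligand of LAG-3, rose by 1.88 (edgeR adjusted p = 0.0162). Lgals3, encoding galectin-3, rose by 1.16 (0.0233), and Cd200, encoding a ligand that quiets myeloid cells, rose by 0.75 (0.00732). Cd24a, which encodes another anti-phagocytic surface protein, fell by 1.03 (adjusted p = 0.0146). Without the 8 tumours above 30 CPM of Mki67, Fgl1 was 1.62 (0.0428) and Lgals3 1.12 (0.0261), while Cd200 was 0.31 (0.226) and Cd24a turned to 0.20 (0.802). The Lgals3 call, and that of Cd200 in Variant 1, were each lost in 5 of 12 fits that left out 1 code, and that of Cd24a in Variant 3 in 9 of 12. In single variants, Cd200 passed in Variant 1 (1.05, adjusted p = 0.0245; 0.38 and 0.469 without the 8 tumours) and Cd24a in Variant 3 (-1.41, 0.0436; -0.56 and 0.651 without them).

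Of 4 other nectins and nectin-like genes, 2 rose in the average and 0 fell (median 0.45, beside the same 3.72% higher and 3.63% lower over all genes), namely Nectin3 by 0.52 (edgeR adjusted p = 0.0251) and Nectin4 by 0.65 (0.0151), which both encode adhesion molecules. These lay on the other side of 0 from Nectin2. Without the 8 tumours they were 0.27 (0.238) and 0.38 (0.14), and the Nectin3 call was also lost in 5 of 12 fits that left out 1 code. Of 11 genes of the interferon-gamma route to Cd274 and of PD-L1 stability, 2 rose and 0 fell in the average, beside 3.72% higher and 3.63% lower over all genes (median 0.34). The receptor gene Ifngr1 rose by 0.74 (adjusted p = 0.00359; 0.64 and 0.0165 without the 8 tumours) and also passed in Variant 1 (0.84, 0.0314), a call lost in 5 of 12 fits that left out 1 code and without the 8 tumours (0.69, 0.163). Ifngr2, encoding the second receptor chain, rose by 0.34 (adjusted p = 0.0473), a call lost in 11 of 12 fits that left out 1 code, in 18 of 36 that left out 1 tumour and without the 8 tumours (0.11, adjusted p = 0.638). Jak1, Jak2 and Irf1, which carry the signal, did not pass (0.36, 0.04 and 0.29). None of 4 other B7 ligands, 4 testable TNF-family genes, 6 testable receptors of these ligands or 6 NF-kB genes passed in any Setd2 comparison by edgeR; an unadjusted p under 0.05 was seen for 2 NF-kB genes in the average, 2 TNF-family genes and 1 NF-kB gene in Variant 1, and 1 TNF-family and 1 B7 gene in Variant 3. Tnfsf15, a TNF-family ligand named after its values were seen, lay at 1.51 in Variant 1 (adjusted p = 0.253) and -2.20 in Variant 3 (adjusted p = 0.121), with an interaction of -3.72 (adjusted p = 0.548). NF-kB genes had a median of 0 in the average, with Nfkbia, a feedback inhibitor that reports NF-kB activity, at -0.57 (adjusted p = 0.144).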

How the data were processed

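RNA was measured in sorted neoplastic cells of 36 tumours, 9 per group, with libraries made from amplified cDNA, per the labels' protocols. The values used are raw counts per gene deposited by the authors. Per the submitters' processing notes, STAR 2.5.3a, R 4.2 and DESeq2 1.38.3 were used. How reads were counted, with or without strand, and on which build and annotation was not given in the sources used here. Gene symbols, exon lengths and coordinates came from GENCODE M21, which matched 49326 of 49585 identifiers. No 2 libraries held identical counts.

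Counts of the 3 tumours of a title code were summed, which weights tumours by depth. The 12 sums were tested with edgeR 4.0.16 (R 4.3.3; filterByExpr, TMM scaling, robust quasi-likelihood F test, Benjamini-Hochberg over 20009 genes, threshold 0.05), all 4 groups sharing one dispersion trend. Alternatives used limma 3.58.1 and DESeq2 1.42.0. Single-gene exact permutations used log2(CPM + 0.5). The edgeR code was run on counts simulated from the model that edgeR itself fits, for Variant 1 sgNeo and Variant 1 sgSetd2 only. That run checks the code and does not test the fit of all 4 groups to these data. Intervals are 95% intervals.

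The members and lists were chosen with earlier results of these data known. All members are named; list genes are named where they passed in at least 1 comparison, at most 4 per list and comparison. The 3 most similar genes are given for Cd274 and each called member. Other list genes with values (Jak1, Jak2, Irf1, Nfkbia) and the markers were named after their values were seen. Leaving out tumours above 30 CPM of Mki67 was chosen after seeing the data.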

Additional observations from a re-analysis of the deposited data

Results flagged for a closer look

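In 28 sets of 9 tumours (7 members in 4 groups), 2 held a tumour that lay far from the rest by Dixon's criterion; chance flags about 1 in 20 such sets. Cd274 was at 5.81 CPM in tumour 2 of CE467 (Variant 1 sgNeo), where the next highest tumour of the group held 2.67 CPM. Cd83 was at 31.8 CPM in tumour 4 of CE479 (Variant 1 sgSetd2), where the next highest held 18.4 CPM. Neither gene passed the test in Variant 1.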

How the results depend on the processing

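Of the 10 members, Cd83 in Variant 3 kept its call in every edgeR, DESeq2 and limma fit tried. Exact permutation of its codes within Variant 3 gave p = 0.1, the smallest it can give, so it cannot reach 0.05. The number of members called for sgSetd2 in Variant 1 was 0, and 1 with DESeq2. In Variant 3 it was 1, and 3 with edgeR on the 36 tumours, which ignores the codes, or 2 with limma voom and the code as random block. In the average it was 2, and 3 with edgeR on the 36 tumours or limma voom, 1 with the macrophage covariate or without the Mki67-high tumours, and 1 to 2 when 1 code or tumour was left out. For Variant 3 against Variant 1 in sgSetd2 it was 1, and 0 with the compared groups alone or with the macrophage covariate, and 0 to 1 when 1 code or tumour was left out. For the interaction it was 0, and 1 with DESeq2. The causes were not tested. There were 3 members with an exact permutation p of at most 0.05 in the average under every pseudocount and unit.

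The sign turned in the following cases, of which Cd24a alone had been called. Lgals9 in Variant 3 was 0.01 with edgeR on tumours, limma on code means, the macrophage or sex covariate, or without the Mki67-high tumours. Without those tumours the averages of Pvr (0.07), Tnfsf9 (-0.09) and Cd24a (0.20) and the Nectin2 interaction (0.15) turned. Cd83 between variants in sgNeo was 0.05 with the sex covariate, and Cd274 in sgSetd2 -0.13 with the macrophage covariate. When 1 code or tumour was left out, the ranges that crossed 0 were -0.04 to 0.25 (Pvr, Variant 1), -0.19 to 0.12 (Lgals9, Variant 3), -0.38 to 0.04 (Tnfsf9, Variant 3), and between variants in sgSetd2 -0.19 to 0.69 (Cd274), -0.33 to 0.05 (Pvr), -0.01 to 0.30 (Lgals9) and -0.54 to 0.05 (Tnfsf9). For the interaction they were -0.71 to 0.16 (Cd274), -0.16 to 0.11 (Nectin2) and -0.08 to 0.17 (Cd47).

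Over all genes, counts called ranged from 16 to 1500 in Variant 1 (284 in the analysis reported), 78 to 1361 in Variant 3 (299), 497 to 2908 in the average (1471), 0 to 392 between variants in sgNeo (1), 1 to 485 in sgSetd2 (26) and 0 to 114 for the interaction (0). No paired analysis was possible because the codes differ between groups and tumour numbers run within a code. Counts were too few for a fold of Cd80, Cd86 and Pdcd1lg2. Codes with Ddx3y above 50 CPM, taken as male, numbered 0 (sgNeo) and 1 (sgSetd2) of 3 for Variant 1, and 2 (sgNeo) and 1 (sgSetd2) of 3 for Variant 3.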
